A study of Mus musculus with 6 samples.

Results

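The 7 mouse genes H2-Aa, H2-Ab1, H2-Eb1, H2-DMa, H2-DMb1, Cd74 and Ciita of antigen presentation on MHC class II are described here. They were chosen by name and looked up in the gene symbol column of the count files, where all 7 were found among 40879 symbols. The series counted messenger RNA at its 3' end in primary hepatic stellate cells, the retinoid-storing pericytes of the liver, taken from wild-type male mice. There were 3 libraries of cells kept for 24 h with APB-R3, a protein engineered from the binding protein that neutralises interleukin-18, and 3 of cells kept for the same time with vehicle. The dose of APB-R3 is labelled 150 µg/ml in one place and 150 µg/kg in another. Strain and age are not stated in the sources used here, nor is it said whether each replicate was its own culture or animal, so any p-value speaks of the spread among these 6 samples alone, and that spread may be technical.

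MHC class II molecules are pairs of an alpha and a beta chain that carry peptides from the endosome to the cell surface, where CD4 T cells read them. H2-Aa and H2-Ab1 encode the chains of mouse I-A, and H2-Eb1 encodes the beta chain of I-E. Cd74 encodes the invariant chain, which fills the groove of a new class II molecule and guides it to the endosome. H2-DMa and H2-DMb1 encode H2-DM, the chaperone that swaps the last fragment of the invariant chain for a peptide. Ciita encodes the transactivator that switches these genes on. It does not bind DNA itself but docks on factors at the S, X and Y boxes of their promoters. Dendritic cells, B cells and activated macrophages carry much class II, and interferon-gamma can raise Ciita in many other cells, sinusoidal endothelial and stellate cells of the liver among them.

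Promoter sequences are shown because they hold the boxes through which Ciita acts on several members at once. Of the 7 members, 4 had entries in the RefSeq promoter table of the build GRCm38.p6, with 250 bases before and 50 bases after each start. In the 60-base windows below, capitals mark the letters ATTGG, the core of the Y box bound by NF-Y, and where present GCAAC, a core of the X box bound by the RFX complex. They lie on chromosome 17 at chr17:34287857-34287916 (minus strand) for H2-Aa, chr17:34305763-34305822 (plus) for H2-Eb1, chr17:34153085-34153144 (plus) for H2-DMb1 and chr17:34145114-34145173 (plus) for H2-DMb2, a copy of H2-DMb1 that is no member.
H2-Aa: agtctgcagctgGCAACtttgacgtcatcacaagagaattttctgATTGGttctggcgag
H2-Eb1: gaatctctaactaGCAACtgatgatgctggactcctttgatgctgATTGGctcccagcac
H2-DMb1: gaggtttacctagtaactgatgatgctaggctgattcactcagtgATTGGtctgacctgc
H2-DMb2: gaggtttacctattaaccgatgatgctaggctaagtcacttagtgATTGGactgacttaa
The ATTGG began 48 bases before the start in H2-Aa, 59 in H2-Eb1 and 61 in H2-DMb1. GCAAC began 33 bases before ATTGG in H2-Aa and 32 in H2-Eb1. The promoters of H2-Oa, H2-Ob and H2-Eb2, other class II genes, held the same pair at 30 to 33 bases. Neither entry of H2-DMa held the pair, nor did those of H2-DMb1 and H2-DMb2. Only the exact letters were searched, so an X box spelled otherwise was not counted, and these genes may still hold one. On either strand ATTGG was in 37.4% and GCAAC in 35.2% of all 32851 promoters of the table. GCAAC followed within 40 bases by ATTGG on the same strand was in 1.56% of them, a pattern written after these sequences were seen. These matches describe letters only.

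The class II genes were counted at low levels in both groups. Over all 6 libraries the 7 members had 1007 counts of 60703376, and they made up 0.00135%, 0.00195% and 0.00226% of the counts in APB-R3 replicates 1 to 3, against 0.00141%, 0.00152% and 0.00142% in vehicle replicates 1 to 3. Levels are given as CPM, the counts of a gene scaled to library total. Since each transcript is read once at its 3' end, long genes gain no counts from their length. The median of the members was 2.26 CPM, where the median of the 12776 genes with enough counts for a test was 21.4 CPM. H2-DMa stood highest at 6.26 ± 1.69 CPM (SD, n = 6), above 25.3% of the tested genes. It was followed by H2-DMb1 at 3.35 ± 0.941 CPM, H2-Aa at 2.75 ± 2.07 CPM and H2-Ab1 at 2.26 ± 1.10 CPM. Below these came Cd74 at 0.972 ± 0.408 CPM, H2-Eb1 at 0.757 ± 0.333 CPM and Ciita at 0.159 ± 0.176 CPM. In the order of levels, H2-DMa did not overlap with H2-DMb1 in any library, with a lowest value of 4.98 CPM against a highest of 4.63 CPM. All other neighbours overlapped or met in their ranges over the libraries. In APB-R3 replicate 2 H2-Aa stood above both chaperone genes, with 6.76 CPM against 5.37 CPM of H2-DMa and 2.59 CPM of H2-DMb1. In dendritic cells and B cells the transcripts of Cd74 and of the I-A chains are known as some of the most abundant.

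**Figure D1:**
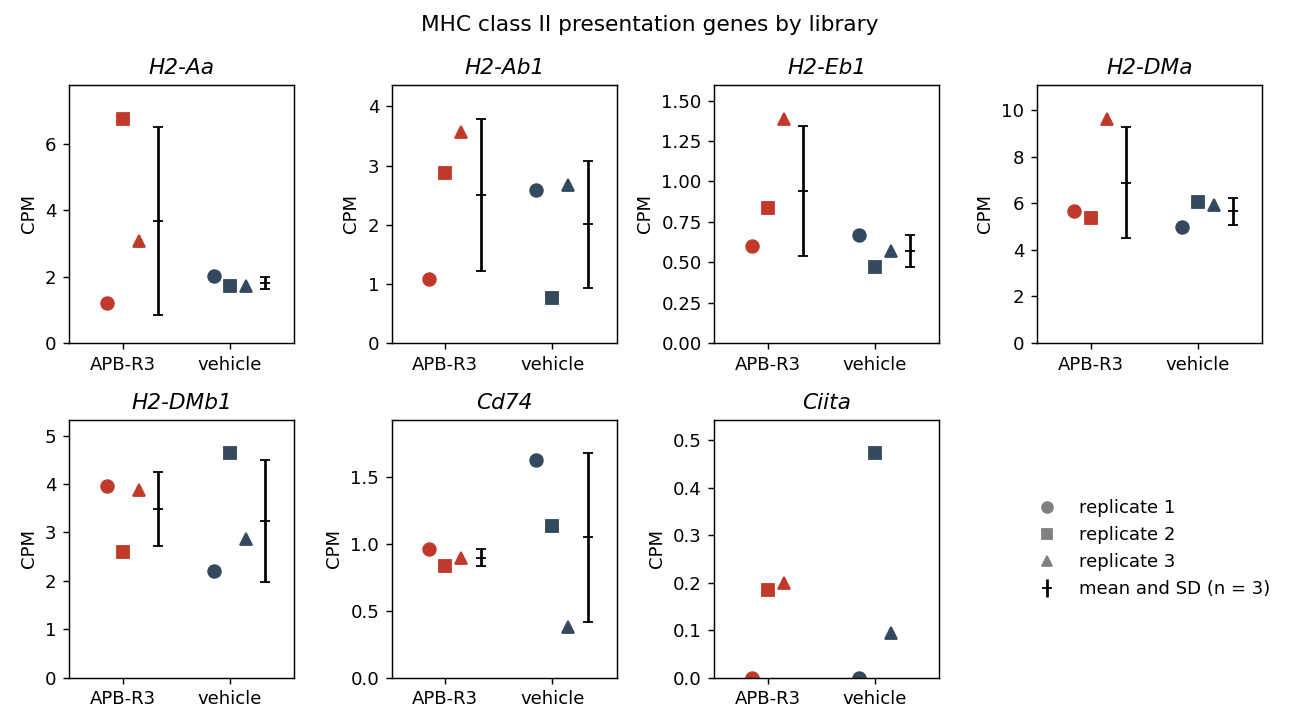
CPM of the 7 class II presentation genes in each library, APB-R3 in red and vehicle in dark blue, with the replicate number as marker shape and the mean and SD of 3 libraries beside the points (no mean is drawn for Ciita, which had 10 counts in all). H2-Aa was high in APB-R3 replicate 2 and H2-DMa in APB-R3 replicate 3, and in each gene the groups overlapped or met.

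Between the groups none of the members passed. Of the 7 members, 5 had enough counts for edgeR's quasi-likelihood test, 4 of them with a higher and 1 with a lower fitted level with APB-R3, and H2-Eb1 and Ciita fell below the count filter. At an adjusted p under 0.05 (Benjamini-Hochberg over all tested genes, two-sided) 0 members were called, where 0% of all 12776 tested genes were. At an unadjusted p under 0.05 again 0 members were called, with 3.33% of all tested genes, 1.75% higher and 1.57% lower with APB-R3. The unadjusted edgeR p of H2-Aa was 0.068 in the test above and fell under 0.05 in 2 alternatives. With no filter on low counts it was 0.035 (adjusted p = 0.902), where 695 of 20496 tested genes were under 0.05. Without APB-R3 replicate 1, the library lowest in H2-Aa, it was 0.0091 (adjusted p = 0.9997), where 474 of 13152 tested genes were under 0.05. DESeq2 and limma-voom called 0 members too. In none of the 7 did the libraries of the groups stand fully apart, which 8.91% of the tested genes did. The median log2 fold change of the tested members, APB-R3 over vehicle, was 0.28, and that of all tested genes 0.0032. Without APB-R3 replicate 3 the median of the members was 0.011.

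H2-Aa, the alpha chain of I-A, had 1.20, 6.76 and 3.08 CPM in APB-R3 replicates 1 to 3, against 2.01, 1.70 and 1.71 CPM in vehicle replicates 1 to 3. The vehicle libraries lay close together, while the APB-R3 libraries held both the lowest and the highest of the 6 values. APB-R3 replicate 2 had 73 counts, and its exact 95% Poisson interval of 5.30 to 8.505 CPM, which covers counting error only, lay above the intervals of the other 5 libraries, the highest of which ended at 4.37 CPM. The log2 fold change was 1.03 (SE 0.54) with a 95% interval from −0.081 to 2.15, not adjusted for the number of genes (edgeR adjusted p = 0.9998). It was 0.24 without APB-R3 replicate 2.

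H2-Ab1, the beta chain of I-A, had 1.08, 2.87 and 3.57 CPM in the APB-R3 libraries, against 2.59, 0.757 and 2.66 CPM in the vehicle libraries. One library of each group was low, and the other 4 lay between 2.59 and 3.57 CPM. The log2 fold change was 0.33 (SE 0.56) with an interval from −0.84 to 1.505 (edgeR adjusted p = 0.9998). It turned to −0.050 without vehicle replicate 2 and was 0.67 when APB-R3 replicate 1 was left out and 0.011 when APB-R3 replicate 3 was. The chains of I-A were not counted in a fixed ratio. H2-Aa stood at 1.11, 2.35 and 0.861 times H2-Ab1 in APB-R3 replicates 1 to 3 and at 0.778, 2.25 and 0.643 times in vehicle replicates 1 to 3, from 8 to 73 counts a gene and library.

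H2-Eb1, the beta chain of I-E, had 5, 9 and 14 counts in APB-R3 replicates 1 to 3, or 0.601, 0.834 and 1.39 CPM. It had 7, 5 and 6 counts in vehicle replicates 1 to 3, or 0.671, 0.473 and 0.571 CPM. The 28 counts of the APB-R3 libraries together made 0.959 CPM (exact 95% Poisson interval 0.637 to 1.39 CPM), and the 18 of the vehicle libraries 0.571 CPM (0.339 to 0.903 CPM). These intervals overlap and cover counting error only. H2-Ea, the partner chain of I-E, had 0, 3 and 1 counts with APB-R3 and 0 in each vehicle library. Mouse strains of the H2b type, C57BL/6 among them, are known not to transcribe H2-Ea.

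Cd74, the invariant chain, had 0.961, 0.834 and 0.893 CPM in APB-R3 libraries, against 1.63, 1.13 and 0.381 CPM in vehicle libraries. Here the APB-R3 libraries were alike and lay within the range of the vehicle libraries. They held 8, 9 and 9 counts, and the vehicle libraries 17, 12 and 4. The log2 fold change was −0.23 (SE 0.72) with an interval from −1.72 to 1.26 (edgeR adjusted p = 0.9998). It turned to 0.22 without vehicle replicate 1 and was −0.63 without vehicle replicate 3.

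H2-DMa, the alpha chain of the peptide-loading chaperone, had 5.65, 5.37 and 9.63 CPM with APB-R3, against 4.98, 6.05 and 5.90 CPM with vehicle. A single library, APB-R3 replicate 3, stood above the rest, with 97 counts and a Poisson interval from 7.81 to 11.7 CPM. The other 5 libraries had between 47 and 64 counts, and the highest end of their intervals was 7.73 CPM. The log2 fold change was 0.28 (SE 0.31) with an interval from −0.36 to 0.91 (edgeR adjusted p = 0.9998), and −0.031 without APB-R3 replicate 3. On the opposite strand H2-DMa overlaps Brd2, a bromodomain gene with 624 ± 79.1 CPM (SD, n = 6), in GENCODE release M21. The counts of H2-DMa came to 1.004% of those of Brd2, and the strand setting of the counting is not given in the sources used here, so the level of H2-DMa is uncertain. Brd2 had 656, 722 and 586 CPM in APB-R3 replicates 1 to 3, against 697, 529 and 555 CPM in vehicle replicates 1 to 3. Whether reads of Brd2 add to the counts of H2-DMa was not tested.

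H2-DMb1, the beta chain of the same chaperone, had 3.96, 2.59 and 3.87 CPM in APB-R3 libraries, against 2.205, 4.63 and 2.86 CPM in vehicle libraries. Vehicle libraries were both the lowest and the highest. The log2 fold change was 0.09 (SE 0.43) with an interval from −0.81 to 0.99 (edgeR adjusted p = 0.9998). It was 0.46 without vehicle replicate 2, and turned to −0.12 without vehicle replicate 1 and to −0.019 without APB-R3 replicate 1. Its copy H2-DMb2, whose promoter window is shown above beside that of H2-DMb1, had 7 counts in all libraries together, where H2-DMb1 had 202. The last 300 bases of their longest coding transcripts in GENCODE M21 were 65.2% identical, with no identical run longer than 23 bases.

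Ciita, the transactivator, had 0, 2 and 2 counts in APB-R3 replicates 1 to 3 and 0, 5 and 1 in vehicle replicates 1 to 3. Together the 10 counts equal 0.165 CPM, and their exact 95% Poisson interval is 0.0790 to 0.303 CPM. The 4 counts with APB-R3 made 0.137 CPM (0.0373 to 0.351 CPM), and the 6 with vehicle 0.190 CPM (0.0699 to 0.414 CPM). A difference between the groups was not detectable at this depth. In the libraries with 0 counts, a level of up to 0.360 CPM in APB-R3 replicate 1 and 0.288 CPM in vehicle replicate 1 is allowed by 3 counts. Ciita overlaps Dexi on the opposite strand, a gene with 20.1 ± 1.25 CPM, and its few counts are uncertain for that reason too.

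The remaining class II genes were at or near 0. H2-Oa, which encodes a chain of H2-DO, the inhibitor of H2-DM, and H2-Eb2 had 0 counts in all 6 libraries, where 3 counts would allow a level of up to 0.0494 CPM. H2-Ob, the other chain of H2-DO, had 2 counts, both in vehicle libraries. None of these 5 other class II genes, H2-Ea and H2-DMb2 included, had enough counts for a test.

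**Figure D2:**
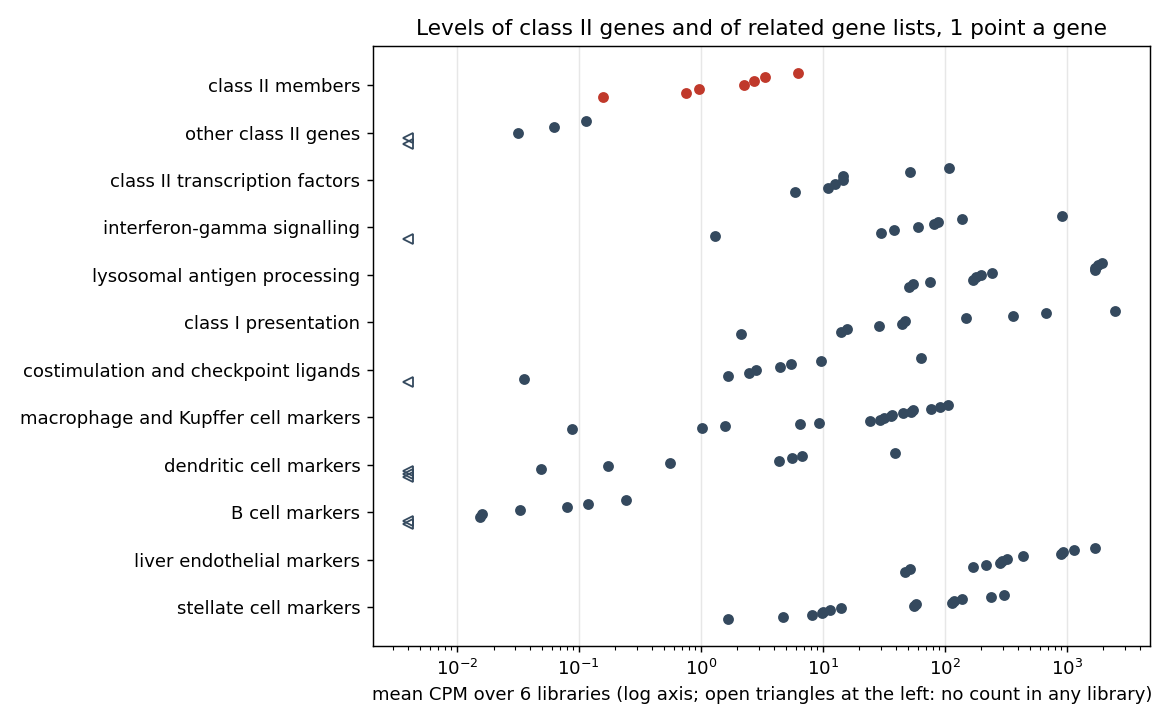
Mean CPM over the 6 libraries on a log axis, 1 point a gene, for the class II members in red and for related gene lists in dark blue, with open triangles for genes with no count. The members lie between 0.159 and 6.26 CPM, below all 11 genes of lysosomal antigen processing and all 12 liver endothelial markers.

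Genes that work around class II were counted at very different levels, some of them within the range of the members or at 0. The factors that sit on class II promoters were all detected. Rfx5, Rfxap and Rfxank, the subunits of the RFX complex on the X box, had 14.7 ± 1.66, 12.7 ± 2.04 and 5.96 ± 1.97 CPM (SD, n = 6). Of the subunits of NF-Y on the Y box, Nfya had 14.6 ± 1.89 CPM and Nfyb 52.1 ± 5.85 CPM over the 6 libraries, and Nfyc had 9.44 ± 2.30 CPM with APB-R3 and 12.5 ± 4.78 CPM with vehicle (SD, n = 3 each). Creb1, a factor of the X2 box, had 109 ± 9.60 CPM. Of these 7 genes 0 were called at an adjusted or an unadjusted p under 0.05 by edgeR, 2 had a higher and 5 a lower fitted level with APB-R3, and their median log2 fold change was −0.11.

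Interferon-gamma is the best known inducer of Ciita. Ifng itself had 0 counts in every library, while the receptor genes Ifngr1 and Ifngr2 had 60.3 ± 2.79 and 87.5 ± 5.29 CPM. Of the kinases and factors behind the receptor, Jak1 had 917 ± 118 CPM, Jak2 30.2 ± 4.79 CPM and Irf1 81.3 ± 6.84 CPM. Irf8, a factor of myeloid cells, had 138 ± 21.2 CPM, and Socs1, a feedback inhibitor, 1.31 ± 0.928 CPM. Of the 8 tested genes 3 had a higher and 5 a lower fitted level, and 0 were called by edgeR at an adjusted or an unadjusted p under 0.05.

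The proteases and other proteins that make peptides for class II in the lysosome were abundant. Ctsb, Ctsl and Ctsd, which encode cathepsins, had 1946 ± 107, 1802 ± 111 and 1710.7 ± 83.6 CPM. Ctss, the cathepsin that trims the invariant chain in dendritic cells and B cells, had 242 ± 30.8 CPM. Lgmn, an asparagine endopeptidase, had 170 ± 24.1 CPM and Ifi30, the lysosomal thiol reductase GILT, 54.7 ± 8.65 CPM. Sppl2a, the protease that cuts the last stub of the invariant chain, had 76.1 ± 5.57 CPM. The count of Ctss alone was between 11.6 and 18.1 times the summed level of the 7 members within a library. Of the 11 genes 7 had a higher and 4 a lower fitted level with APB-R3 (median log2 fold change 0.01), and 0 were called by edgeR at an adjusted or an unadjusted p under 0.05. The widest of these 11 intervals was that of Ifi30, from −0.28 to 0.30, narrower than that of any tested member.

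**Figure D3:**
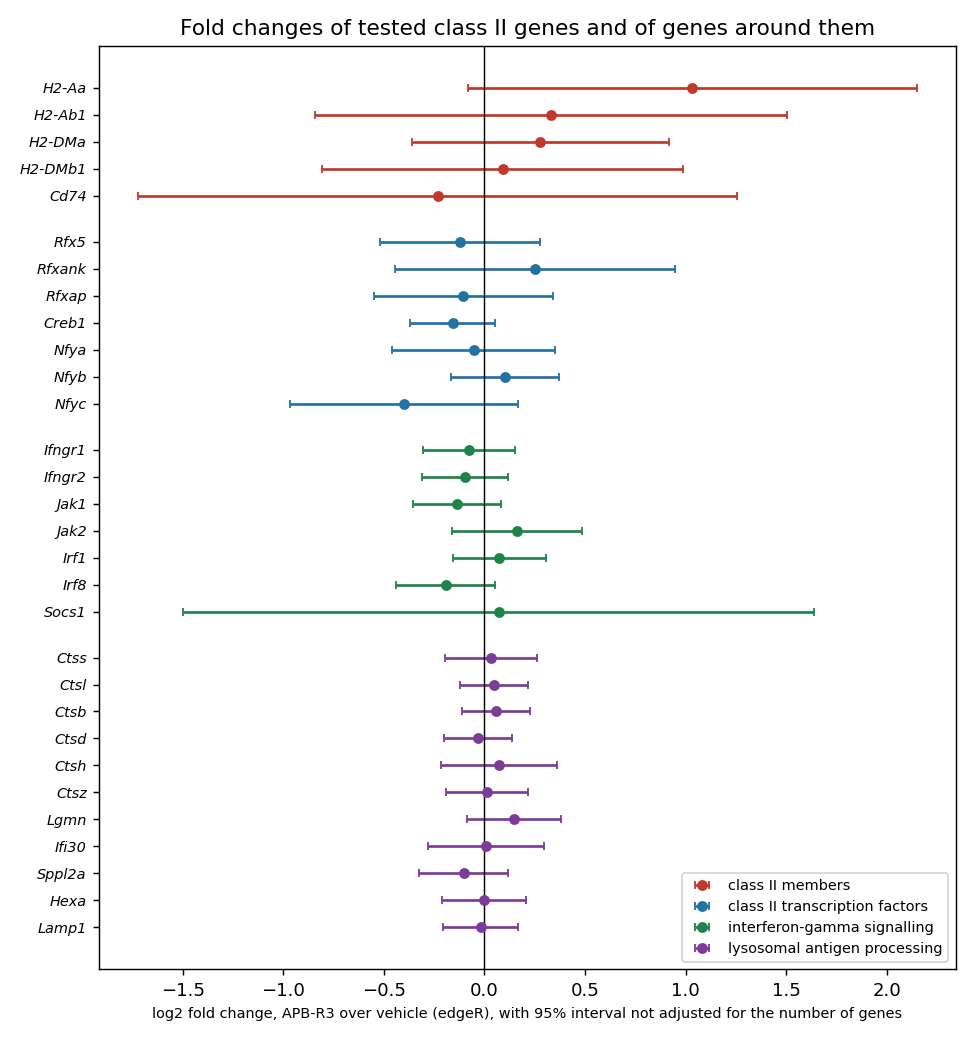
Log2 fold change of APB-R3 over vehicle from edgeR with its 95% interval, not adjusted for the number of genes, for the 5 tested class II members and for promoter factors, interferon-gamma signalling and lysosomal processing genes. All intervals include 0, and those of the members are wide, from −0.081 to 2.15 for H2-Aa and from −1.72 to 1.26 for Cd74.

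The turnover and costimulation genes did not pass either, with 4 of 6 and 6 of 7 tested genes at a higher fitted level with APB-R3 and 0 called by edgeR at an adjusted or an unadjusted p under 0.05. Marchf1, the ubiquitin ligase that removes class II from the surface, had 2.93 ± 0.565 CPM with APB-R3 and 3.08 ± 0.503 CPM with vehicle. Its relative Marchf8 had 86.2 ± 9.24 CPM with APB-R3 and 84.9 ± 5.98 CPM with vehicle (SD, n = 3 each). Mif, which encodes a cytokine that binds the invariant chain, had 218, 210 and 183 CPM with APB-R3, against 183, 196 and 165 CPM with vehicle, a log2 fold change of 0.16 (SE 0.10), in groups that overlap. Cd80 and Cd86, the ligands of CD28 on T cells, had 1.67 ± 1.22 and 2.51 ± 1.12 CPM, close to the class II chains. Cd40, the receptor through which T cells license presenting cells, had 6.49, 6.95 and 5.56 CPM with APB-R3, against 3.74, 5.30 and 4.76 CPM with vehicle. Every APB-R3 library was above every vehicle library in Cd40, which was so in 4.75% of the tested genes. Its log2 fold change was 0.46 (SE 0.31, interval −0.20 to 1.11, edgeR adjusted p = 0.9998). Cd274, the checkpoint ligand PD-L1, had 9.60 ± 2.28 CPM, while Tnfsf4, the ligand of OX40, had 0 counts.

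Class I presentation, which serves CD8 T cells and is at work in nearly all cells, was far more abundant. H2-K1, H2-D1 and B2m, the chains of class I molecules, had 363 ± 29.1, 673 ± 59.1 and 2496 ± 176 CPM. Their sum was 256, 167 and 163 times that of the 7 class II members in APB-R3 replicates 1 to 3, against 250, 253 and 242 times in vehicle replicates 1 to 3. Nlrc5, the class I counterpart of Ciita, had 2.14 ± 0.662 CPM and 128 counts, where Ciita had 10. Of the 10 class I genes 1 had a higher and 9 a lower fitted level with APB-R3 (median log2 fold change −0.08). At an adjusted p under 0.05 0 were called, and 1 at an unadjusted p, where 3.33% of all tested genes were. This was Erap1, a peptide-trimming protease of the endoplasmic reticulum. Erap1 had 25.6, 26.2 and 20.9 CPM with APB-R3, against 34.6, 36.4 and 28.7 CPM with vehicle, a log2 fold change of −0.46 (SE 0.15, edgeR adjusted p = 0.9998). Each APB-R3 library was below each vehicle library in Erap1, as in 4.16% of the tested genes.

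The cultures held RNA of several liver cell types, and class II levels are those of the whole culture, in which fewer cells of a type and less RNA per cell cannot be told apart. Markers of stellate cells had a median of 35.1 CPM over 14 genes, with Lrat, the retinol-esterifying enzyme of quiescent stellate cells, at 1.68 ± 0.677 CPM and Acta2, the actin of activated ones, at 103, 108 and 80.6 CPM with APB-R3, against 133, 131 and 129 CPM with vehicle. Every APB-R3 library was below every vehicle library in Acta2, as in 4.16% of the tested genes. Its log2 fold change was −0.43 (SE 0.11, edgeR adjusted p = 0.9998 and 0.052 with no filter). Of the 14 stellate cell markers 5 had a higher and 9 a lower fitted level with APB-R3 (median log2 fold change −0.06). At an adjusted p 0 of them were called and 2 at an unadjusted p under 0.05, Acta2 and the collagen gene Col1a2, both lower with APB-R3. Of all tested genes 3.33% were called at that unadjusted p by edgeR, 1.57% of them all lower with APB-R3. For 12 markers of liver endothelium the median was 310 CPM, with Lyve1 at 1715 ± 126 CPM. The median of 16 macrophage and Kupffer cell markers was 33.9 CPM, with Cd5l, a secreted protein of Kupffer cells, at 107 ± 32.9 CPM and Csf1r, the receptor of the macrophage growth factor, at 45.8 ± 8.44 CPM. Of the 10 dendritic cell markers, Xcr1, Ccr7 and Siglech had 0 counts and Flt3 had 11. Zbtb46, which endothelial cells also express, was highest of them at 38.9 ± 3.69 CPM. Batf3 had 6.73 ± 1.36 CPM, Itgax 5.56 ± 1.97 CPM and Clec9a 4.35 ± 1.62 CPM, within or near the range of the class II members. B cell markers were near 0, with 0 counts of Cd79a and Pax5 and 4 of Ms4a1 in all libraries. None of the 8 had a mean over the 6 libraries above 0.242 CPM, and the highest value in a single library was 0.757 CPM, of Cr2 in vehicle replicate 2. T and NK cell markers had 0 counts of Cd3e and Cd8a, but Lck, a kinase of T cells, had 212 counts and 3.51 ± 1.21 CPM, a level above that of H2-Aa. Klrb1c, a receptor of NK cells, had 1.32, 1.67 and 1.99 CPM with APB-R3, all above the 1.05, 0.946 and 0.286 CPM with vehicle, as was so in 4.75% of the tested genes. Its log2 fold change was 1.11 (SE 0.68, edgeR adjusted p = 0.9998). Only 2 of the 8 T and NK cell markers had enough counts for a test, 1 higher and 1 lower with APB-R3. The lower one was Lck, with a log2 fold change of −0.20 (SE 0.45, edgeR adjusted p = 0.9998). Neutrophil markers had a median of 0.127 CPM.

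Vehicle replicate 2 stood apart in the sum of hepatocyte markers, though not in each of them. The 8 hepatocyte markers summed to 6.01, 8.06 and 14.0 CPM in APB-R3 replicates 1 to 3, against 9.97, 65.9 and 7.61 CPM in vehicle replicates 1 to 3. In vehicle replicate 2 Fgb, a fibrinogen chain, had 32.1 CPM and Alb, serum albumin, 18.1 CPM, where the highest values elsewhere were 1.68 and 6.75 CPM. Apoa1, Serpina1c, Cps1 and Tat were highest there too. Ttr was not, with 5.96 CPM in APB-R3 replicate 3 against 3.88 CPM in vehicle replicate 2. Nor was Cyp2e1, with 0.959 CPM in vehicle replicate 1 against 0.189 CPM in vehicle replicate 2. Of the 3 tested hepatocyte markers 0 were called at an adjusted p and 2 at an unadjusted p under 0.05, Fgb and Alb, both lower with APB-R3. For all tested genes the share called at that unadjusted p was 3.33%, or 1.57% counting only those lower with APB-R3. With no filter Fgb was called by edgeR (adjusted p = 5.1e-17). H2-Ab1 and H2-Eb1 had their lowest levels in vehicle replicate 2, and H2-DMb1 and Ciita their highest. The values of H2-Ab1 and H2-DMb1 without it are given above, and its part in the class II levels was not tested.

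Of the 14 macrophage markers tested 0 were called by edgeR at an adjusted or an unadjusted p under 0.05, with a median log2 fold change of 0.12. APB-R3 replicate 3 had the highest level of H2-Ab1, H2-Eb1 and H2-DMa, and also of 13 of the 16 macrophage markers and 7 of the 11 lysosomal genes. The summed level of these markers was 544, 544 and 795 CPM in APB-R3 replicates 1 to 3, against 594, 685 and 476 CPM in vehicle replicates 1 to 3. Vehicle replicate 2 was second in the macrophage sum. It was lowest in H2-Ab1 and H2-Eb1, second in H2-DMa at 6.05 CPM and highest in H2-DMb1 at 4.63 CPM. Vehicle replicate 3 was lowest in the macrophage sum. Its H2-Ab1 was at 2.66 CPM, where the mean over all libraries was 2.26 CPM, and its H2-DMa at 5.90 CPM, where that mean was 6.26 CPM. Within the list, C1qa, a complement gene of Kupffer cells, had 47.8, 50.4 and 79.5 CPM in the APB-R3 libraries, against 52.0, 52.8 and 46.3 CPM in the vehicle libraries. The log2 fold change was 0.23 for C1qa, but −0.02 for C1qb and −0.07 for C1qc, the genes of its partner chains. H2-Aa had its highest value in APB-R3 replicate 2, with 544 CPM of macrophage markers. The 7 members together came to 2.47%, 3.57% and 2.85% of the macrophage sum in APB-R3 replicates 1 to 3, against 2.37%, 2.22% and 2.98% in vehicle replicates 1 to 3. The part of macrophage RNA in the class II levels was not tested. Dendritic cell markers summed to between 49.9 and 60.1 CPM, and B cell markers to 1.80 CPM in APB-R3 replicate 1 and to at most 0.757 CPM elsewhere.

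**Figure D4:**
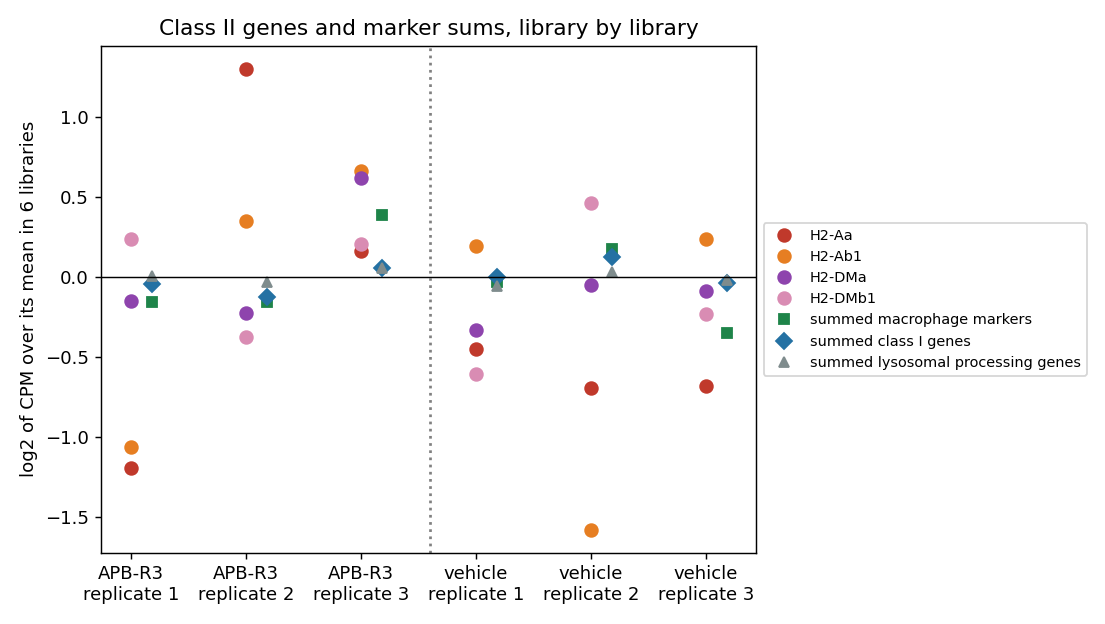
Log2 of the CPM in a library over its mean in all 6 libraries, for 4 class II genes (circles) and for the summed levels of macrophage markers, class I genes and lysosomal processing genes, with APB-R3 libraries on the left of the dotted line and vehicle libraries on the right. H2-Aa and H2-Ab1 spread widely between libraries, the sums of class I and lysosomal genes hardly, and the macrophage sum was highest in APB-R3 replicate 3 at 795 CPM.

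The summed level of the 7 members was 13.5, 19.5 and 22.6 CPM in APB-R3 replicates 1 to 3, against 14.1, 15.2 and 14.2 CPM in vehicle replicates 1 to 3. The vehicle libraries lay close together, and the APB-R3 libraries on both sides of them. For the sum of H2-Aa, H2-Ab1, H2-Eb1 and Cd74 the values were 3.84, 11.3 and 8.93 CPM with APB-R3, against 6.90, 4.07 and 5.33 CPM with vehicle. Among 9991 other genes with at least 5 CPM on average, the 5 whose pattern over the 6 libraries was nearest to this sum were Lncppara, Fpgs, Cenpl, Fbh1 and Gchfr. Their root mean square differences from it, on centred log2(CPM + 1) values, were 0.083, 0.19, 0.19, 0.22 and 0.22, where the sum itself had a root mean square of 0.49 about its mean. Lncppara, a noncoding RNA, had 3.24, 10.6 and 8.64 CPM with APB-R3, against 7.29, 4.16 and 5.14 CPM with vehicle. With 6 libraries and 9991 genes such a likeness is a description only.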

How the data were processed

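Gene expression was measured in 6 libraries, 3 with APB-R3 and 3 with vehicle. The deposited files hold counts, whole numbers of reads for each gene symbol, with no normalization. Per the labels' protocols, libraries were made with a Lexogen QuantSeq kit from 500 ng of total RNA. Per the submitters' processing notes, bcl2fastq 2.20.0.422, fastp, STAR and HTSeq were used on GRCm39. The sources used here do not give the versions of the last 3, the annotation, the strand setting or any use of molecular identifiers. Totals ran from 8323809 to 10792531 counts a library. The header inside each file carries a number that is 1 above that of the title, and the title was used. No library was a copy of another (chi-square per degree of freedom of 5.54 or more for every pair).

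The groups were compared with edgeR 4.0.16 in R 4.3.3. Default filterByExpr settings were used (minimum count 10, minimum total 15), with TMM factors and the quasi-likelihood test, treatment as the only term, and Benjamini-Hochberg adjustment over 12776 genes at a threshold of 0.05. Standard errors come from dividing the log2 fold change by the root of F. CPM use plain library totals. The scripts were tested on simulated counts. Each of these was tried in turn as an alternative: DESeq2 1.42.0, limma-voom (limma 3.58.1), size factors of DESeq2, plain library sizes, a replicate block, no filter, a filter of 5 CPM in at least 3 libraries, and leaving out each library. The members, the 15 other gene lists with 141 genes and the tests were chosen with earlier results of these data known. Members were always named. Of other lists some of the most abundant genes were named, those bearing on class II, any that passed, and those singled out for their values. Cd40, Erap1, Acta2, Klrb1c, Fgb and Mif were singled out in this way. Lrat, Csf1r and C1qa were named too, though other genes of their lists were more abundant. Some listed genes are not reported here, though they stay in the counts of their lists. Promoters are from RefSeq (GRCm38.p6), another build than that of the counts, and were matched by symbol.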

Additional observations from a re-analysis of the deposited data

How the results depend on the processing

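No member was called at an adjusted p under 0.05 under any of the 13 alternatives. The number of genes called over the whole table was 0 in the main test and 20 with no filter on low counts, none of them a class II member, and with 1 library left out it ran from 0 to 1. The median log2 fold change of the tested members was 0.28, ran from 0.24 to 0.29 with all 6 libraries, and from 0.011 to 0.39 with 1 library left out, the lowest value without APB-R3 replicate 3. With 1 library left out the log2 fold change ran from 0.24 to 1.43 for H2-Aa, −0.050 to 0.67 for H2-Ab1, −0.031 to 0.43 for H2-DMa, −0.12 to 0.46 for H2-DMb1 and −0.63 to 0.22 for Cd74. The adjusted p of any member was never below 0.902. Only H2-DMa kept enough counts for a value with at least 5 CPM in 3 libraries. Whether the replicate numbers pair the libraries is not settled by these data. Same-numbered libraries had small correlations of 0.022, 0.027 and 0.048 over the deviations of all tested genes. Each library was nearest to its own number, and the correlations between unlike numbers lay from −0.027 to −0.0031. The deviations were taken from the mean of each group. Values above 0 for like numbers therefore push those between unlike numbers below 0, and the latter are no separate evidence. With a replicate block 0 genes were called, with 539 at an unadjusted p under 0.05 against 425 without it, and H2-Aa had a log2 fold change of 0.79. Depth limits H2-Eb1, Cd74 and Ciita most, at 46, 59 and 10 counts in all libraries.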
